A study of Mus musculus with 2 samples.

Results

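Myc-Tag ChIP-seq signal for tagged Dlx5 inside genes was described by 653 intervals out of 3477 called in a mouse T-cell lymphoma. An interval was taken when its summit, the position of its highest signal, lay within the body of a protein-coding gene, more than 1 kb from each end of every protein-coding gene and more than 2 kb from each end of every other gene, and when the interval was not also called in the input. Chromosomes 1 to 14 and 16 to 19 were used, which held 3167 intervals once those called in the input had been dropped. These members lay in 606 genes, 644 of them in a single gene and 9 where a pair of genes overlap.

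The series holds 2 libraries, 1 Myc-Tag ChIP and 1 input, with no replicate of either. Both came from a lymphoma of Lck-Dlx5 mice, in which the thymocyte-specific Lck promoter drives a Myc-tagged Dlx5 transgene. The tagged protein is thus a transgene product in cells that normally lack it. No Myc-Tag ChIP of cells without the transgene was in the series, so signal that does not come from the tagged protein cannot be told apart. The strain was labelled C57BL/6 for the ChIP and C57BL/7 for the input. The labels call the material a primary tumor and the control an input, whereas the methods of the study name the cell line F85-786 and an IgG control. No read counts were in the deposited tracks, so the depth is unknown and every comparison below is of intervals within 1 library. Intervals printed with shares, ratios and medians are 95% confidence intervals for counting error only.

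Dlx5 is a homeobox transcription factor that takes part in craniofacial, limb and neural development and recognizes sites with a TAATT core. Gene bodies hold enhancers, and they also hold internal promoters from which shorter transcripts of the same gene begin. Many vertebrate promoters lie in CpG islands, stretches in which the CG dinucleotide is much more common than in the rest of the genome.

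Of the 653 intervals, 147 had their summit within 500 bp of a transcript start that RefSeq lists inside the host gene, called an internal start here. The sequences before such starts are shown first, because CpG content was the clearest feature that these intervals shared and that their choice had not used. Each run gives the 250 bases before a listed start, 5′ to 3′ on the strand of the gene, from RefSeq on GRCm38 (mm10). Capitals mark CG dinucleotides. For Dnmt1, Sgk1 and Kdm4c the start at the outer end of the gene follows the internal one. The internal start had an interval in each of these 3 genes and the outer start had none.
Dnmt1 internal start, chr9:20952624-20952873, minus strand: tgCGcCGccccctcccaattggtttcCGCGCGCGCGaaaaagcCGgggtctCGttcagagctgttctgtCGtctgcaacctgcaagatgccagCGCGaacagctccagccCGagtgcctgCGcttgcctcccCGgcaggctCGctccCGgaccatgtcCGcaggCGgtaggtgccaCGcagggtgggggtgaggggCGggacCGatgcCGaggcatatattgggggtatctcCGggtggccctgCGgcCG
Dnmt1 outer start, chr9:20959889-20960138, minus strand: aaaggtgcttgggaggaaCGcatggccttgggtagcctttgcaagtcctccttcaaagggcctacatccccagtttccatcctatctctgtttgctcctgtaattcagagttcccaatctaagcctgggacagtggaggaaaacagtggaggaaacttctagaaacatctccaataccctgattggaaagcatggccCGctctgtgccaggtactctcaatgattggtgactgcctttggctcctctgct
Sgk1 internal start, chr10:21994416-21994665, plus strand: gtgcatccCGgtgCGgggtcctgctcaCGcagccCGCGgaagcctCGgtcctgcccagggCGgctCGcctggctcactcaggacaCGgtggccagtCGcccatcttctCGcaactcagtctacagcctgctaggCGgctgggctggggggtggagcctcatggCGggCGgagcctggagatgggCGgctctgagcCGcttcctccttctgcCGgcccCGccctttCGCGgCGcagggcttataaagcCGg
Sgk1 outer start, chr10:21881934-21882183, plus strand: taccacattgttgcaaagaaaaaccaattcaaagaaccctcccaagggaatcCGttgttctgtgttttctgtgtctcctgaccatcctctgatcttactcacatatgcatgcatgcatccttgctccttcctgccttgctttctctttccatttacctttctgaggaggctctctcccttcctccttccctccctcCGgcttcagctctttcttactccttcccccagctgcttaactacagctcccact
Kdm4c internal start, chr4:74251629-74251878, plus strand: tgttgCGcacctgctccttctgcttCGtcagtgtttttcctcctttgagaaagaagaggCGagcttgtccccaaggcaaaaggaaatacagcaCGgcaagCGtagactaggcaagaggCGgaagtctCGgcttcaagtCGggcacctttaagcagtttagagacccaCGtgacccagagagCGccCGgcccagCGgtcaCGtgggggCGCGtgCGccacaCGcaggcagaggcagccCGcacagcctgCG
Kdm4c outer start, chr4:74242247-74242496, plus strand: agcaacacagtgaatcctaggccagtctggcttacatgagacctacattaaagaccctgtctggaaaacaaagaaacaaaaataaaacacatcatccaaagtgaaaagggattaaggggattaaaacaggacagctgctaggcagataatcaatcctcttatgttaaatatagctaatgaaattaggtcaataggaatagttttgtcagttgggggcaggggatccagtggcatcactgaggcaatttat
Rbpj internal start, chr5:53590096-53590345, plus strand: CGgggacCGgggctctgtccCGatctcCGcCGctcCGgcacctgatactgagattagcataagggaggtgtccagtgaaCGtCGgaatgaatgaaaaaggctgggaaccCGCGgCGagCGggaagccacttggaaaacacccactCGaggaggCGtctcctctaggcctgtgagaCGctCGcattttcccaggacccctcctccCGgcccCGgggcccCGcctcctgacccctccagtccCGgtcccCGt
Stag1 internal start, chr9:100643198-100643447, plus strand: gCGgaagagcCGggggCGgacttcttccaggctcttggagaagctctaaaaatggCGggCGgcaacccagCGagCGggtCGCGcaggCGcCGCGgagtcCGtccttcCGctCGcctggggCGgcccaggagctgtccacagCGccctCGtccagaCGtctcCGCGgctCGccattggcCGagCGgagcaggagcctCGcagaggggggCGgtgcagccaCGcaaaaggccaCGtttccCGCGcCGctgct
Ddx56 internal start, chr11:6267730-6267979, minus strand: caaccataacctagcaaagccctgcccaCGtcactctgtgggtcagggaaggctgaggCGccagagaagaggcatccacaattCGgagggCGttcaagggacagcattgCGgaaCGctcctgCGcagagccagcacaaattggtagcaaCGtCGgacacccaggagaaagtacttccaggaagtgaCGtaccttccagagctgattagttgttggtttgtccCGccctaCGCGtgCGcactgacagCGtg

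The Dnmt1 internal start had 26 CG dinucleotides in 250 bases and its outer start had 2. Dnmt1 encodes the maintenance DNA methyltransferase and is known to begin its transcripts at different first exons in oocytes and in somatic cells. Sgk1, a kinase activated downstream of mTORC2, had 22 at the internal start and 2 at the outer one. Kdm4c, a histone lysine demethylase, had 19 and 0. Rbpj, the DNA-binding partner of activated Notch, had 21, Stag1, a cohesin subunit, had 31, and Ddx56, a DEAD-box RNA helicase, had 15. An opposite case was Nt5c2, a cytosolic nucleotidase, whose internal start had an interval of height 33 and 4 CG dinucleotides, whereas its outer start had 38 and no interval. Over the 44 host genes with both kinds of start listed, the internal start with the interval held more CG dinucleotides than the outer one in 28, fewer in 15 and an equal number in 1, with medians of 17.5 and 12.5.

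The TAATT core, read on both strands as TAATT or AATTA, was found before 17 of the 159 internal starts with an interval (10.7%). That was a lower share than the 24.6% of internal starts without one and the 22.2% of all listed starts. These shares do not describe the sequence at the summits, since 90 of the 147 summits (61.2%) lay downstream of the start, outside these bases. The study reports a motif search of its ChIP-seq in which most of the Dlx5 binding consensus was TAATT. The bases before starts cannot test that result. The following 3 starts of genes with a role in T cells or chromatin are shown as examples, with the TAATT core in capitals.
Ptpn22 internal start, chr3:103860027-103860276, plus strand: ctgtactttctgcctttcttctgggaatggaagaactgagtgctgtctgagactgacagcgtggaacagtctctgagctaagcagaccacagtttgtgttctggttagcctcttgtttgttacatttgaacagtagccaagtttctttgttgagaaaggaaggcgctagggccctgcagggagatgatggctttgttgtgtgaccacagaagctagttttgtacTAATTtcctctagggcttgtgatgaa
Foxp1 internal start, chr6:99028299-99028548, minus strand: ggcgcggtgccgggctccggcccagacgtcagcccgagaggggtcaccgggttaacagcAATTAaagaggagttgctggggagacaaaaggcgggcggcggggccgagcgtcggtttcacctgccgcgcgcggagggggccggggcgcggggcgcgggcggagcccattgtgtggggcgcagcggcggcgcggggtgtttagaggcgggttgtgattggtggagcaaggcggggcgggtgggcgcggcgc
Hdac4 internal start, chr1:92180342-92180591, minus strand: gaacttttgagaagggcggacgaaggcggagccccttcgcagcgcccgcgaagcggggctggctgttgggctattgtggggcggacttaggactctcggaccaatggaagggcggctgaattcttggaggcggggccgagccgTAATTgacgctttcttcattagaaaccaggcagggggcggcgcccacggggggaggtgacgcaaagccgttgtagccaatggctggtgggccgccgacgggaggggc

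Ptpn22, a phosphatase that restrains T-cell receptor signalling, had its summit 37 bp before the internal start, at a height of 23. Its 250 bases held 2 CG dinucleotides. Foxp1, a forkhead factor required for T-cell quiescence, had its summit 342 bp before the start. The start of Hdac4, a class IIa histone deacetylase, had its summit 475 bp upstream. The summits of Foxp1 and Hdac4 thus lay outside the bases shown. Sequence around the summits themselves was not analysed here, because no genome of this build was used.

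Gene bodies took the larger share of the intervals that were not at gene ends. Of the 3167 intervals, 20.6% (Wilson interval 19.2 to 22.1) lay inside gene bodies, compared with 59.2% within 1 kb of the end of a protein-coding gene (57.5 to 60.9), 8.18% near the ends of other genes only (7.27 to 9.18) and 12% between genes (10.9 to 13.1). Gene interiors covered 866.3 Mb and held 0.754 intervals per Mb, whereas the sequence between genes covered 1259.6 Mb and held 0.301 per Mb. The ratio of these densities was 2.51 (exact binomial interval 2.20 to 2.85). It includes intervals at internal starts. In genes with a listed start, the interior more than 500 bp from such starts held 0.561 intervals per Mb. The density inside genes was highest on chromosome 11, at 1.48 per Mb, and lowest on chromosome 16, at 0.521 per Mb, and it was above the density between genes on each of the 18 chromosomes.

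Median heights inside genes were within 1 unit of those elsewhere, and the widths differed more. The height is the authors' score for a summit, with a scale that the sources used here do not give. The median height was 15 inside genes, with quartiles of 13 and 18 and a range of 9 to 61. It was 15 at the ends of coding genes, 16 at the ends of other genes and 15 between genes. Heights of 25 or more were reached by 47 of the 653 intervals (7.20%), compared with 7.41% at coding ends, 10.6% between genes and 12% at the ends of other genes. The median width inside genes was 663 bp (order-statistic interval 650 to 689), which lay between the 792 bp (778 to 808) of intervals at coding ends and the 615 bp (593 to 640) of intervals between genes, with no overlap of these intervals.

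**Figure D1:**
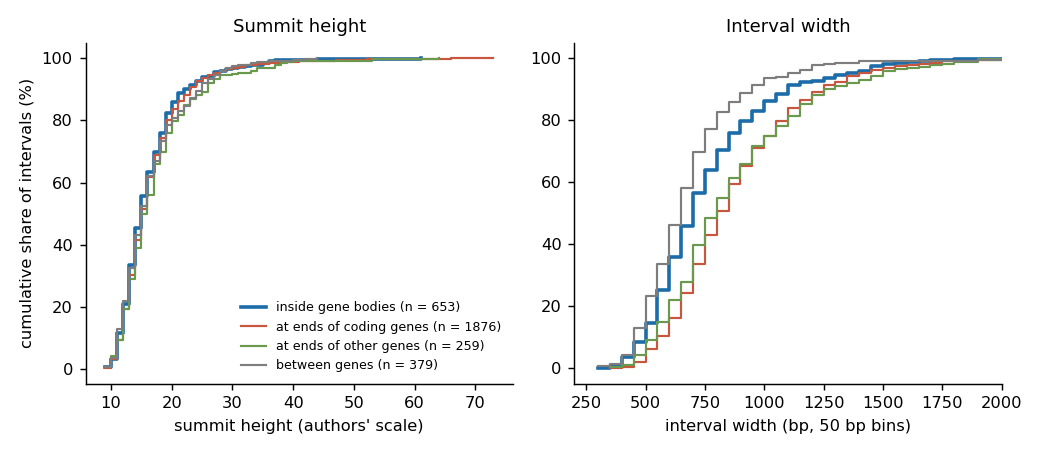
Cumulative share of intervals, in percent, by summit height on the authors' scale (left) and by width in 50 bp bins (right, the widest not shown), for the 653 intervals inside gene bodies and for the 3 other position classes. The height curves run close together, with medians of 15 or 16, whereas the width curve of the gene-body intervals lies between those of intervals between genes and at gene ends.

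The tallest gene-body interval was in Slc6a6, which encodes the taurine transporter, with a height of 61 at chr6:91707328-91708097, 23696 bp from the nearest end of the gene. Gpc5, a glypican of the cell surface, had an interval of height 45 at 380583 bp from its start, the farthest from a gene end among all 653, and another of height 19 that lay 3950 bp away. Txnrd2, the mitochondrial thioredoxin reductase, had a height of 44, and Fnip1, a folliculin-interacting protein that acts in AMPK and mTOR signalling, had a height of 38 in an interval of 357 bp. The other hosts among the 15 tallest were Prrc2b with 37, then Ankmy1, Prep, Zdhhc17, Acbd4 and Kank1 with 36 each, Ddx56, Rap1gap2, Myo18b and Klhl18 with 35 each, and Nt5c2 with 33, a height that Cers6 and Mob3b, next in the order, shared. Their known roles are varied and include a prolyl peptidase (Prep), a palmitoyltransferase (Zdhhc17), a Rap GTPase-activating protein (Rap1gap2) and a Cul3 adaptor (Klhl18). Of these, Ddx56 and Nt5c2 had their interval at a listed internal start.

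A further 4 intervals inside genes were dropped for being called in the input as well. The highest interval that was not called in the input reached 73 over all position classes. The interval in Cdk8 had a height of 111 in the ChIP and 45 in the input. Chl1 had 83 and 40, Mdga2 had 67 and 26, and the interval shared by the overlapping genes Cmss1 and Filip1l had 61 and 21. Before these calls were dropped, 4 of 657 intervals inside genes and 16 of 395 between genes were also called in the input.

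The widest interval spanned 3524 bp at Tspoap1, with a height of 31. It ran across one end of the gene, and its summit lay 1390 bp from that end. Ptma, which encodes prothymosin alpha, held the next at 2480 bp and height 22, followed by Tubb5, a beta-tubulin, with 1793 bp, the bromodomain gene Brd3 with 1742 bp and the histone acetyltransferase gene Kat6b with 1672 bp. The height of 17 in Brd3 was near the median of all gene-body intervals although its width was far above the median. The distance limits cut through a continuum. The intervals nearest inside the 1 kb limit were in Tle5 (1004 bp, height 15), Mthfd1l (1007 bp, height 10) and Tssc4 (1008 bp, height 16), and those just outside it were at Gapdh (995 bp, height 15) and Zzz3 (991 bp, height 16). At the 2 kb limit, Rbms1 (2017 bp, height 12), Fam78a (2037 bp, height 20) and Tmc6 (2079 bp, height 19) were inside, and Ptpn14 (1989 bp, height 17), Chd2 (1926 bp, height 26) and Dedd (1902 bp, height 23) were outside.

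Most host genes held a single interval. Of the 17412 protein-coding genes with any sequence beyond these limits, 606 hosted an interval, a share of 3.48%. Among the hosts, 559 had 1 interval, 39 had 2, 7 had 3 and 1 had 4. The gene with 4 was Arid1b, a subunit of the BAF chromatin remodelling complex, with heights of 18, 15, 15 and 12. Those of height 18 and 15 at the front lay 1639 and 15815 bp from the start of the gene, and the other two lay at 301479 and 309191 bp.

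The genes with 3 intervals were Aff1, Ets1, Itpr2, Kctd1, N4bp2, Axin2 and Fbxl17. Aff1, a subunit of the super elongation complex and a partner of MLL fusions in leukemia, had heights of 22, 22 and 20. Ets1, a factor of lymphoid development, had 20, 13 and 12 at chr9:32695408-32696484, chr9:32705818-32706488 and chr9:32716996-32717707. Itpr2, an IP3-gated calcium channel, had 20, 16 and 16. Axin2, a negative regulator and known target of Wnt signalling, had 15, 13 and 12, and the first of these lay 387 bp downstream of a listed internal start. Close spacing was seen elsewhere too. In 21 cases neighbouring members lay less than 10 kb apart, with gaps as short as 29 bp in St6galnac5, 40 bp in Arrdc3, 44 bp in Fbxl22 and 85 bp in Lig4.

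Long genes hosted intervals more often, but had fewer per length of sequence. The median length was 57.1 kb for hosts and 21.3 kb for the other genes. The share of genes that hosted an interval was 1.11% below 10 kb, 2.46% from 10 to 30 kb, 4.76% from 30 to 100 kb, 8.76% from 100 to 300 kb and 7.24% above 300 kb. Per Mb of interior, the corresponding densities went down from 3.48 to 1.63, 1.02, 0.668 and 0.177.

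A gene-body interval was accompanied by an interval at an end of the same gene in 90 of the 606 hosts (14.9%, Wilson interval 12.2 to 17.9). Among all genes with an interior the share was 11.8%, and among those without a gene-body interval it was 11.6% (11.2 to 12.1). Measured per length, genes with an interval at an end held 1.26 gene-body intervals per Mb and those without held 0.701, a ratio of 1.80 (1.44 to 2.23). This ratio pools genes of different lengths, and the direction was the opposite from 10 to 30 kb, with 1.16 per Mb in genes with an interval at an end and 1.71 in those without. Where the strand of the gene was listed, the interval at an end was at the start in 76 of 491 hosts (15.5%) and at the far end in 9 (1.83%), against 11.6% and 0.687% over all genes with an interior.

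Within the genes, intervals were more frequent towards the start. Of the 530 members whose host had a listed strand, 229 lay in the first of 4 equal parts of the gene (43.2%, 39.1 to 47.5), 133 in the second (25.1%), 93 in the third (17.5%) and 75 in the last (14.2%, 11.4 to 17.4). The median distance to the nearest end of the host was 7.87 kb. Within 5 kb of an end lay 276 of the 653 intervals (42.3%), and 88 lay beyond 50 kb.

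The intervals at internal starts made up part of this gradient. Of the 147 at an internal start, 99 were in the first part (67.3%, 59.4 to 74.4) and 4 in the last (2.72%, 1.06 to 6.79). The 383 others were spread more evenly, with 130 in the first part (33.9%, 29.4 to 38.8), 102 in the second, 80 in the third and 71 in the last (18.5%, 15 to 22.7).

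**Figure D2:**
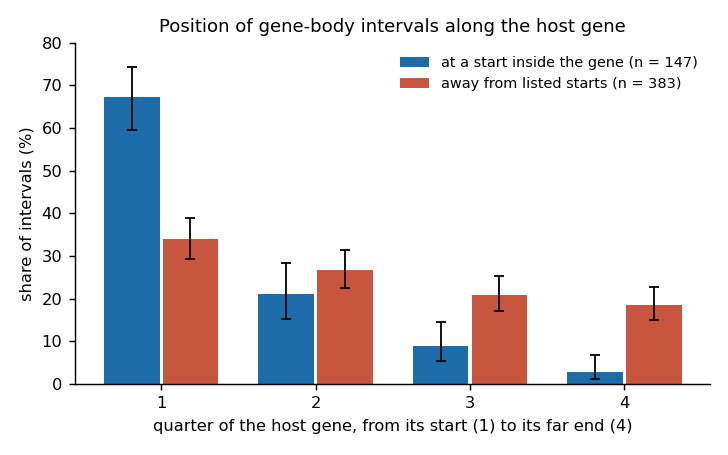
Share of intervals, in percent, in each of 4 equal parts of the host gene from its start (1) to its far end (4), with 95% Wilson intervals as error bars, for the 147 gene-body intervals at a listed internal start and the 383 away from one. The first part held 67.3% of the former and 33.9% of the latter.

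Internal starts were thus examined as a place of their own. The 147 intervals were 27.7% of the 530 with a listed host start (24.1 to 31.7), whereas the sequence within 500 bp of these starts was 0.431% of the interior. The density was 49.7 intervals per Mb near such starts and 0.561 per Mb elsewhere in the same genes. The summits lay at a median of 55 bp downstream of the start, with quartiles of 98 bp upstream and 157.5 bp downstream, and 90 of the 147 (61.2%) were downstream. Within 100 bp of a start lay 52 summits and within 250 bp lay 117.

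**Figure D3:**
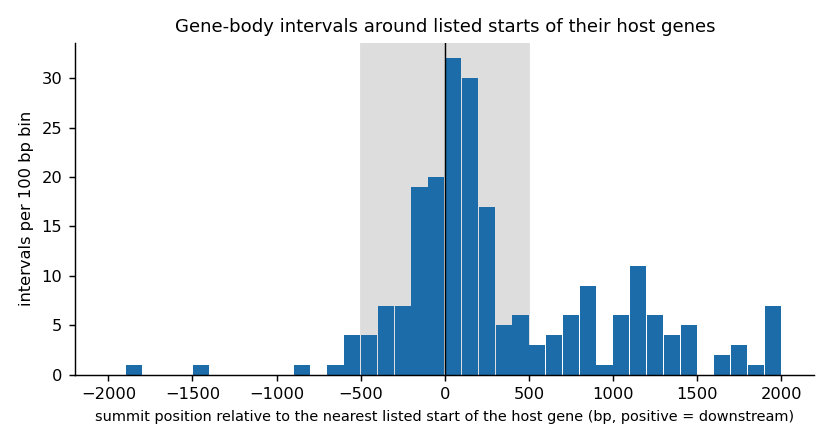
Number of gene-body intervals per 100 bp bin by the position of the summit relative to the nearest listed start of the host gene, in bp, with downstream positions positive and the 500 bp on each side shaded. The tallest bins hold 32 and 30 intervals just downstream of the start, and beyond 1 kb downstream the nearest start can be the outer one.

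Intervals at internal starts were wider than the others, with a median width of 791 bp (727 to 845), close to that at coding gene ends, compared with 633 bp (603 to 653) for members away from listed starts. Their heights were not higher, with a median of 15 in both sets and a highest value of 35 at the internal starts and 45 away from them. The tallest at an internal start was in Ddx56, with the summit 95 bp upstream. It was followed by Nt5c2 with 33, Ift46, a subunit of the intraflagellar transport machinery, with 29, the acetyltransferase gene Nat10 with 28 and the splicing factor gene Srsf1 with 26. Such intervals could lie very far from the outer start. Sgk1 had its summit 112440 bp from the outer edge of the gene and 42 bp before an internal start, and Foxp1 had its summit 494106 bp from the outer edge.

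The 147 intervals at an internal start lay in 145 genes. In 14 of these (9.66%, 5.84 to 15.6) an interval was also called within 1 kb of the outer edge on the start side. The share was 11.6% over all genes with an interior and a listed strand. It was 18.2% (14.5 to 22.5), 64 of 352, for hosts of members away from listed starts. Of the 145 genes, 44 had a listed transcript start at the outer edge and 101 did not, and for 73 of them the start inside the gene bounds was the single start listed. The shares at the outer edge are therefore not shares at a listed start, and the groups compared can differ in this. Counting only internal starts that themselves lay beyond the distance limits, in genes with an outer start listed as well, 7 of 40 with an interval at an internal start had one at the outer start as well (17.5%, 8.75 to 31.9), compared with 69 of 970 whose internal starts had none (7.11%, 5.66 to 8.91).

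Seen from the starts, 159 of the 3142 listed internal starts (5.06%) had a gene-body interval within 500 bp, in 132 genes, since neighbouring starts can share an interval. Of the 14816 outer starts, 1531 had an interval (10.3%). The 250 bases before internal starts with an interval had a median CpG ratio, the observed count over that expected from the C and G content, of 0.808. The median was 0.348 before internal starts without an interval, 0.837 before outer starts with one and 0.503 before outer starts without one. A ratio of 0.6 or more, a common criterion for a CpG island, was reached by 131 of the 159 internal starts with an interval (82.4%, 75.7 to 87.5) and by 28.5% (26.9 to 30.1) of those without.

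**Figure D4:**
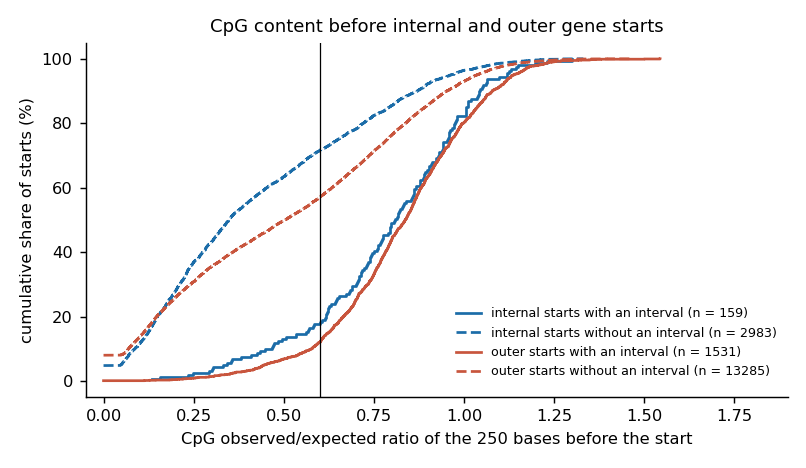
Cumulative share of starts, in percent, by the observed to expected CpG ratio of the 250 bases before the start, for internal and outer starts with and without an interval within 500 bp. The vertical line marks a ratio of 0.6, and the curves of starts with an interval lie to the right of those without, with medians of 0.808 and 0.837 against 0.348 and 0.503.

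Short words in the same 250 bases differed along with this. GGCGG, the core of the GC box, counted on both strands, stood before 85.5% of internal starts with an interval and 44.8% of those without, and CTTCCG, the core of many Ets sites, before 27.7% and 11%. TAATT was found before 10.7% (6.78 to 16.5) of internal starts with an interval, 24.6% (23.1 to 26.2) of those without, 13.2% of outer starts with an interval and 23.8% of those without, and before 22.2% of all listed starts. CCAAT differed less, with 28.3% and 31.9% at internal starts with and without an interval. The median GC content was 62.0% before internal starts with an interval and 53.2% before those without, and its part in these word counts was not tested.

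Genes were next grouped by function. The lists were chosen with earlier results of these data known, so their shares are descriptive and no independent evidence. Each list was read against the 3.48% of all genes with an interior. The share was above that value in every list except the neuronal and B-lineage lists, where it was 0. For these lists, as for the Akt, myeloid and article lists, the confidence interval included 3.48%. Among T-lineage transcription factors, 10 of 47 hosted an interval (21.3%, 12 to 34.9), and their density was 2.75 per Mb against 0.753 per Mb over all genes. The list had a median gene length of 81.8 kb, and genes of 30 to 100 kb hosted an interval in 4.76% of cases. The hosts were Bcl11b, Ets1, Fli1, Foxp1, Lef1, Nfatc3, Runx1, Satb1, Tcf7 and Zeb1.

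The intervals in these factors were low. Their median height was 13, and with heights of 16 or more 1 of the 47 genes, Ets1, still hosted one (2.13%), against 1.63% of all genes at that height. Lef1 and Tcf7, the nuclear partners of beta-catenin that act in thymocyte commitment, had single intervals of height 13 and 11. Bcl11b, a zinc finger factor needed for T-cell commitment, had a pair of heights 13 and 11 that lay 297 bp apart, 39329 and 37809 bp from the start of the gene. Satb1, a chromatin organizer of thymocytes, had 2 intervals, both of height 11. Runx1, Fli1, Nfatc3 and Zeb1 had heights of 13, 14, 14 and 14, and the pair in Foxp1 had 15 and 12.

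Of the genes of T-cell receptor signalling, 10 of 57 were hosts (17.5%, 9.82 to 29.4), and 6 of 57 (10.5%) were with heights of 16 or more. Their density was 2.08 per Mb and their median length 55.7 kb. Ptpn22 had the highest at 23 (chr3:103859731-103860650), followed by Vav2, a guanine nucleotide exchange factor, with 22, Itpr2 with 20, and Wasf2 and Arhgef1 with 18 each. The interval in Arhgef1, another exchange factor, lay 26 bp before an internal start. Ptprc, which encodes the phosphatase CD45, had a height of 16, Ubash3a 15, the kinase gene Prkcq 14, and the adaptor gene Lcp2 and the ubiquitin ligase gene Cblb had 10 each.

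Chromatin regulators hosted an interval in 10 of 92 genes (10.9%, 6.01 to 18.9), in 7 of 92 (7.61%) with heights of 16 or more and in 6 at 5 kb from coding gene ends. Their density was 1.85 per Mb and their median length 75 kb. Of their 15 intervals, 6 lay at an internal start. They were Arid1a with a height of 21, Dnmt1 and Stag1 with 19, Brd3 and Kdm4c with 17, and one of the pair in Hdac4 with 13. Arid1a, the other ARID subunit of BAF besides Arid1b, also had an interval of height 11 at a gap of 401 bp. The Kat6b interval had a height of 19 and lay 1648 bp from the outer edge of the gene, and Jarid2, a cofactor of a Polycomb repressive complex, had a height of 11.

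Cytokine receptors with Jak and Stat genes had 5 hosts among 37 (13.5%, 5.91 to 28.0), 3 of them (8.11%) with heights of 16 or more, and 4.73 intervals per Mb at a median length of 31.1 kb. Stat4, which transmits interleukin 12 signals, had intervals of height 22 and 9, and Il12rb2, a chain of the interleukin 12 receptor, had 17 and 13. Flt3 had 16, Jak1 15 and Stat5b 14. No interval of this group lay at an internal start.

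The Akt and mTOR list had 3 hosts among 40 genes (7.5%, 2.58 to 19.9), and 3 at heights of 16 or more, but 1 at heights of 19 or more. Its density was 0.758 per Mb, close to the 0.753 over all genes, and its median gene length was 72.6 kb. Rptor, which encodes the mTORC1 subunit Raptor, had a height of 25, Sgk1 17 and Mapkap1, a subunit of mTORC2, 16. The Notch list had 4 hosts among 38 (10.5%, 4.17 to 24.1) and 1.66 intervals per Mb, but 1 of 38 (2.63%) with heights of 16 or more and 2 at 5 kb from coding gene ends. Rbpj had a height of 18 with the summit 54 bp downstream of an internal start, 34621 bp from the outer edge, and Maml3, a Mastermind coactivator, had 14. Notch3 had a height of 11.

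Notch3, a Notch receptor expressed in early thymocytes, was the single host among 22 genes taken from the article on these mice (4.55%, 0.807 to 21.8), a list that the study chose in part on these libraries and that is no independent evidence. The list had 2 hosts when ends of other genes were not considered and 0 at 5 kb from coding gene ends. Notch1 was on the list and was not a host, although the study reports a Dlx5 site inside that gene and another downstream of it. With ends of other genes not considered, the Notch list, which includes Notch1, still had 4 hosts. The 2 kb limit alone thus did not remove the site inside Notch1. Whether the 1 kb limit did was not examined here. The Notch3 interval was at chr17:32163812-32164823, 1012 bp wide, with the summit 2778 bp downstream of the listed start. Of the 653 gene-body intervals, 576 (88.2%) were taller and 88 (13.5%) were wider. The study also reports ChIP-qPCR binding of Dlx5 at a Notch3 enhancer element. In its reporter assay, Dlx5 raised Notch3 promoter activity with that element, whereas a mutant without the DNA-binding domain did not. The study designed primers for cloning and for ChIP-qPCR of this Notch3 element, shown here because they mark the tested fragment.
Notch3 cloning F2681: ctgcttgcctGTGAGTGTCTG
Notch3 cloning R2823: gggaaacacaagaggttaccg
Notch3 ChIP F2701: GTGAGTGTCTGgcccagcgc
Notch3 ChIP R2800: agccacacacatggaggaagtgatacc
Capitals mark the 11 bases that both forward primers share, which set them 10 bases apart, whereas their names differ by 20. The origin of the numbers in the names is not given in the sources used here, and the primers were not placed on the genome.

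The neuronal, B-lineage and myeloid lists had 0 or 1 host each, and for each of them the interval of the share included the 3.48% of all genes. They are not clean contrasts with T cells. Mef2c was on both the B-lineage and T-lineage lists, and Spi1 and Tal1 were on both the myeloid and T-lineage lists. No gene of the neuronal adhesion and synapse list hosted an interval, 0 of 48, for which 3 counts would allow a share of up to 6.25% and the Wilson interval reaches 7.41%, although these genes are long, with a median of 1023 kb and 49.0 Mb of interior in all. Genes above 300 kb held 0.177 intervals per Mb in general. B-lineage genes had 0 of 28, for which 3 counts would allow up to 10.7% and the Wilson interval reaches 12.1%, and 1 of them was a host when ends of other genes were not considered. Myeloid and erythroid genes had 1 of 25 (4%), Klf1, an erythroid factor, with a height of 11. Over all lists together, 42 of 416 genes were hosts (10.1%, 7.56 to 13.4), and 21 (5.05%) with heights of 16 or more. Per length the lists together did not stand above the rest, with 0.714 intervals per Mb of interior against 0.753 over all genes. Of their 78.4 Mb of interior, 49.0 Mb lay in the neuronal list, which held 0 intervals. The pooled value therefore does not describe the single lists. Apart from the neuronal and B-lineage lists, each was above 0.753 per Mb, from 0.758 (Akt and mTOR) to 4.73 (cytokine receptors, Jak and Stat).

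**Figure D5:**
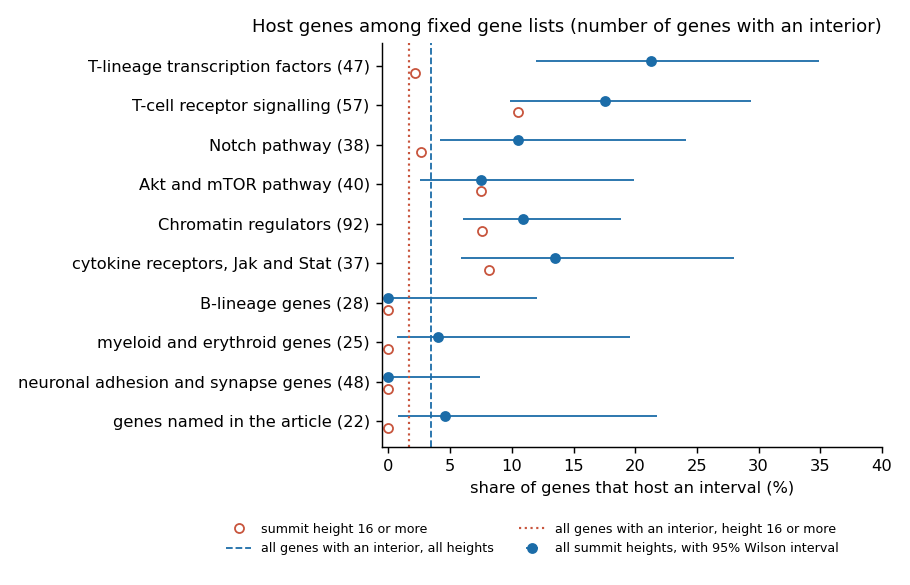
Share of genes with an interior that hosted a gene-body interval, in percent, for each gene list, with the number of genes in brackets. Filled points with 95% Wilson intervals show all heights, open points show summit heights of 16 or more, and the vertical lines mark the share over all genes, 3.48% and 1.63%. T-lineage transcription factors went from 21.3% to 2.13% between these settings, whereas the Akt and mTOR list stayed at 7.5%.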

How the data were processed

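ChIP with a Myc-Tag antibody was performed on 1 Lck-Dlx5 lymphoma, with 1 control library. Active Motif sequenced the DNA on an Illumina GA II and took the MACS p-value for peak calling. The processing notes name BWA and mm9. Other settings of the alignment and peak calling are not given in the sources used here. The summit height is a score that the authors deposited in browser tracks, with no stated normalization, together with the bounds of the intervals. The coordinates were read as mm10, because 1603 of 3090 summits (51.9%) lay within 500 bp of a start listed on GRCm38.p6. Of the 653 summits inside genes, 629 lay on a 16 bp grid, which limits their precision.

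Each interval was joined to its summit and placed by the gene bounds of RefSeq on GRCm38.p6 with Python 3.11.15, numpy 2.4.6, pandas 2.3.3 and scipy 1.17.1. A table of 250 bases before and 50 bases after each start gave strand, internal starts and sequence, of which the 250 bases before the start were used. Host genes of 123 members were not listed there. Starts within 500 bp of the edge of the gene were called outer starts. Exons and introns were not told apart. Shares have Wilson intervals, density ratios exact binomial intervals and medians order-statistic intervals, all at 95%. With 1 library per group there is no replicate error and no test between conditions, and libraries differing in depth could not be compared. The code was tested on simulated intervals. The genes named are the hosts of the 15 tallest intervals, hosts of 3 or more, hosts on the lists, Notch3, the 5 widest intervals and those next to the distance limits. Some items are not reported here. Other genes are examples chosen after their values were seen. Members and gene lists were chosen with earlier results of these data known. Alternatives changed the minimum height, the distance limits, the input filter, the point used, the chromosomes and the genes counted.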

Additional observations from a re-analysis of the deposited data

How the results depend on the processing

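Of 60 recomputed values, single lists left out, 39 stayed within the confidence interval of the reported value or, for counts, within 1.5 times of it, and 21 moved. Keeping intervals called in the input, using the middle of the interval, adding chromosome 15, leaving out predicted genes or merging intervals closer than 10 kb moved none. With heights of 16 or more, the 653 intervals became 290, their share 19.2%, the median height 19 and width 702.5 bp, the hosts with an interval at an end 6.69%, against 5.95% of all genes at that height, and the hosts on the lists 21. With heights of 19 or more these values were 156, 19.1%, 21, 718 bp, 5.19%, against 3.11% of all genes, and 10. At 5 kb from coding ends, 369 intervals made up 11.7%, with a density ratio of 2.10 and a median width of 639 bp. With ends of other genes not considered, the share was 24.1% and the density ratio 2.17. The share at an internal start, an alternative chosen after seeing the data, was 22.1% within 250 bp, 33.2% within 1 kb and 23.0% at heights of 16 or more. The density inside genes was above that between genes in every alternative run. Of 80 counts for single lists, 20 moved. At heights of 19 or more, 4 chromatin, 3 receptor signalling, 1 T-lineage, 1 Akt, 1 cytokine and 0 Notch genes were hosts. At 5 kb from coding ends, 6 chromatin, 2 Notch, 0 myeloid and 0 article genes were. With ends of other genes not considered, 1 B-lineage and 2 article genes were. The planned counts of TAATT around summits were not run, since no genome sequence of this build was used here. No paired analysis was possible because the ChIP and the input are 1 library apiece. Depth is unknown, so low intervals cannot be graded by their counting error, and the direction of a gene's expression was not analysed here.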
